A study of Mus musculus with 120 samples.

Results

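Conventional dendritic cells (cDC) were sorted 1 per well from the livers of mice kept for 2 weeks on a normal diet (ND) or on a methionine and choline deficient diet (MCDD), and 8 plates of these cells carried an antibody stain with index sorting. The members were chosen by 2 conditions, a plate labelled with the cDC1/2 stain or the mDC stain and a plate map that lists 1 cell in the well. They number 3040 wells of 44840 in the series (6.78%), on 8 of 118 plates. Every plate held 380 wells with 1 cell and 4 empty wells. The 4 plates of the cDC1/2 stain came from the strain Xcr1Cre-mTFP1 and the 4 plates of the mDC stain from the strain c57bl, so stain and strain cannot be told apart. Each stain had 2 ND and 2 MCDD plates, numbered 1.1 and 1.2 for each diet, and all 8 plates were in sequencing batch SB121. All were sorted with the same gate, CD45+Lin-MHC-II+CD11c+. The labels do not expand mDC, give no age or sex, and do not say whether the plates hold cells of separate animals, so the spread between plates may be technical.

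Conventional dendritic cells take up antigen in tissues, carry it to the draining lymph nodes and present it to T cells. The cDC1 subset bears the chemokine receptor XCR1 and excels at presenting captured antigen to CD8 T cells, while the cDC2 subset mainly primes CD4 T cells. In the gate, CD45 marks leukocytes, Lin- leaves out cells with markers of other lineages, and MHC-II with CD11c keeps antigen-presenting cells of dendritic type. A diet without methionine and choline impairs the export of fat from the liver and is used in mice as a feeding model of steatohepatitis. Index sorting records the fluorescence of each sorted cell together with its well. The design compared liver dendritic cells from mice with and without this diet.

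Each well has 2 measures in the tables analysed here, a total and a number of genes. The first is named only as such, so whether it counts reads or molecules, and whether it includes spike-in RNA, is not known. Values per gene and the index-sort readouts were not analysed here. No transcript, surface marker or subset of dendritic cell could therefore be scored, and the label cDC could not be set against its markers. The number of genes detected in a well is a count, and does not say which genes the cell used. How far it reflects capture or the cell itself was not tested.

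The depth differed between plates. The total summed over the 380 wells of a plate ranged from 5687689 to 16989645, and the median total per well from 12882.5 to 37875. ND plate 1.2 of the cDC1/2 stain stood above the rest, with a median total of 37875 against 24021.5 on the next plate. The diet differences over all plates are given below with and without it. The plates used the same 384 cell barcodes, 1 for each position, and 8 different pool barcodes, so no 2 wells shared both codes.

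The empty wells set the floor of the measurement. The 32 empty wells had 3 to 52 genes, with a median of 13.5, and a median total of 687. The 3040 wells with a cell had a median of 474.5 genes and a median total of 18072.5. Wells with a cell were thus far above the floor on average, but 142 of them (4.67%) held no more than the 52 genes of the richest empty well. That empty well was on ND plate 1.2 of the cDC1/2 stain, where the empty wells had 24 to 52 genes. On the other plates the richest empty well had 13 to 37 genes, so 52 lies above the floor of those plates. Wells with no more than 52 genes were fewer under the cDC1/2 stain, with 37 of 1520 wells, than under the mDC stain, with 105 of 1520. By diet the count was 63 of 1520 wells on ND and 79 of 1520 on MCDD. Per plate, in the order ND 1.1, ND 1.2, MCDD 1.1 and MCDD 1.2, the cDC1/2 stain had 10, 4, 9 and 14 such wells, and the mDC stain had 33, 16, 24 and 32. The diets overlapped in both stains, and these counts were not tested.

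The middle and the upper part of the distribution of genes per well lay lower on MCDD than on ND. Under the cDC1/2 stain the median number of genes was 536.5 and 651 on the ND plates and 328.5 and 468.5 on the MCDD plates. With the mDC stain it was 526 and 565 on the ND plates and 376 and 473 on the MCDD plates. All 4 MCDD plates were below all 4 ND plates, with the highest MCDD plate at 473 and the lowest ND plate at 526. Over both stains the mean of the plate medians was 569.6 ± 56.7 on ND and 411.5 ± 71.1 on MCDD (SD, n = 4 plates each). On the log2 scale, with the 2 stains weighted equally, MCDD minus ND was -0.48 ± 0.17 (SE), which is a median 28.3% lower. The exact two-sided permutation test with diet labels permuted within stain gave p = 0.0556, and an adjusted p of 0.0972 over 7 readouts (Benjamini-Hochberg). With 36 relabellings 0.0556 is the smallest p this test can give, so the separation of the plates is the most extreme the design allows, and it cannot reach the 0.05 threshold. Without ND plate 1.2 of the cDC1/2 stain the difference was -0.41, with an exact permutation p of 0.167.

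**Figure D1:**
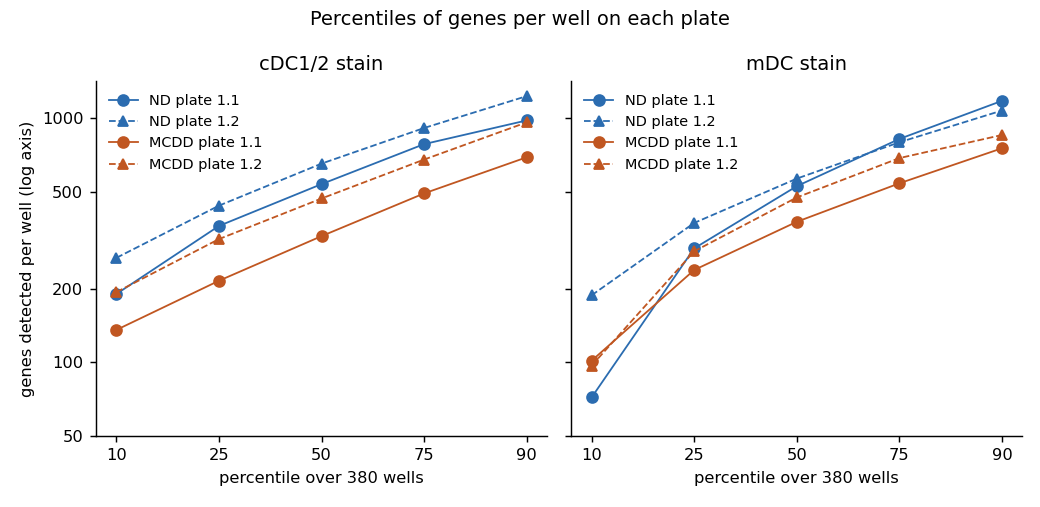
Number of genes per well (log axis) at the 10th, 25th, 50th, 75th and 90th percentile of the 380 wells of each plate, for the cDC1/2 stain (left) and the mDC stain (right). ND plates are blue and MCDD plates orange, with circles and solid lines for plate 1.1 and triangles and dashed lines for plate 1.2. From the median upwards both MCDD lines run below both ND lines in each stain, while at the 10th percentile the lines overlap.

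The upper percentiles gave the same picture. At the 75th percentile the cDC1/2 stain had 782.25 and 910.75 genes on ND and 491.5 and 676.25 on MCDD. The mDC stain had 821.25 and 795.75 genes on ND and 540.5 and 685.5 on MCDD at that percentile. The diets did not overlap, and the difference was -0.48 ± 0.15 (SE, n = 4 plates each, exact permutation p = 0.0556, adjusted p = 0.0972). At the 90th percentile the cDC1/2 stain had 978.1 and 1230 genes on ND and 691 and 960.6 on MCDD. The mDC stain had 1176.1 and 1073.5 genes on ND and 752 and 852.3 on MCDD. Here too the highest MCDD plate, at 960.6, was below the lowest ND plate, at 978.1, although these neighbours in the order differ by less than the spread within a diet. The difference at the 90th percentile was -0.46 ± 0.16 (SE, n = 4 plates each, exact permutation p = 0.0556, adjusted p = 0.0972). Without ND plate 1.2 of the cDC1/2 stain the differences at the 75th and 90th percentile were -0.425 and -0.376, with an exact permutation p of 0.111 for both.

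The lower percentiles separated the diets less well. At the 25th percentile the cDC1/2 stain had 361.75 and 438 genes on ND and 215.75 and 319.5 on MCDD, and the mDC stain had 292.75 and 372 on ND and 238.75 and 284.75 on MCDD. Within each stain both MCDD plates were below both ND plates, but MCDD plate 1.2 of the cDC1/2 stain was above ND plate 1.1 of the mDC stain. The difference at the 25th percentile was -0.47 ± 0.19 (SE, n = 4 plates each, exact permutation p = 0.0556, adjusted p = 0.0972). At the 10th percentile the cDC1/2 stain had 190.4 and 267.7 genes on ND and 135.7 and 193.8 on MCDD. The mDC stain had 71.8 and 188.1 on ND and 101.5 and 96.9 on MCDD, so the plate with the lowest 10th percentile of all was an ND plate. The diets overlapped in both stains, and the difference was -0.35 ± 0.39 (SE, n = 4 plates each, exact permutation p = 0.444, adjusted p = 0.444). Without ND plate 1.2 of the cDC1/2 stain the difference at the 25th percentile was -0.401, with an exact permutation p above 0.0556. The difference at the 10th percentile was -0.230 without this plate. It moved to -0.01 without ND plate 1.2 of the mDC stain and to -0.70 without ND plate 1.1 of that stain. ND plate 1.1 of the mDC stain, the lowest at this percentile, also had the most wells with no more than 52 genes, 33 of 380. Among only the wells with at least 100 genes, which leaves all such wells out, the difference at the 10th percentile was -0.349 (exact permutation p = 0.167, adjusted p = 0.194).

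Averaged over both stains, the difference was of like size from the 25th to the 90th percentile, between -0.48 and -0.46 on the log2 scale. The stains ran in opposite directions, from -0.60 to -0.43 under the cDC1/2 stain and from -0.34 to -0.49 under the mDC stain. The width of the middle of the distribution, the log2 ratio of the 75th to the 25th percentile, was 1.19 ± 0.20 on ND and 1.18 ± 0.08 on MCDD (SD, n = 4 plates each). Its plate values overlapped, from 1.06 to 1.49 on ND and from 1.08 to 1.27 on MCDD. The log2 ratio of the 90th percentile to the median did not overlap under the cDC1/2 stain, at 0.866 to 0.918 on ND and 1.04 to 1.07 on MCDD. Under the mDC stain it overlapped, at 0.926 to 1.16 on ND and 0.850 to 1.00 on MCDD. No test was made of these widths.

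The wells richest in genes were fewer on MCDD. Under the cDC1/2 stain 37 and 75 of 380 wells reached 1000 genes on the ND plates (9.74% and 19.7%) and 11 and 35 on the MCDD plates (2.89% and 9.21%). With the mDC stain 61 and 50 of 380 wells did so on ND (16.1% and 13.2%) and 12 and 22 on MCDD (3.16% and 5.79%). The shares did not overlap between diets over all plates. The closest pair, ND plate 1.1 and MCDD plate 1.2 of the cDC1/2 stain, had 95% Wilson intervals of 7.15% to 13.1% and 6.70% to 12.5%, so counting error alone spans that gap. The mean share was 14.7% ± 4.25 on ND and 5.26% ± 2.94 on MCDD (SD, n = 4 plates each). The difference was -9.41 ± 3.11 percentage points (SE), with an exact permutation p of 0.0556 and an adjusted p of 0.0833 over 3 shares. Without ND plate 1.2 of the cDC1/2 stain it was -6.91 percentage points, and the exact permutation p was above 0.0556.

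The share of wells with at least 500 genes, close to the middle of the distribution, showed the largest gap in percentage points of the 3 shares tested. On the ND plates it was 53.7% and 66.8% under the cDC1/2 stain and 52.1% and 58.2% under the mDC stain. On the MCDD plates it was 23.4% and 44.7% under the cDC1/2 stain and 29.5% and 46.6% under the mDC stain. Each MCDD plate was below each ND plate. The difference was -21.6 ± 7.73 percentage points (SE, n = 4 plates each, exact permutation p = 0.0556, adjusted p = 0.0833), and -18.4 percentage points without ND plate 1.2 of the cDC1/2 stain. With that plate left out the exact permutation p was above 0.0556.

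At the far end, 50 of 1520 wells on ND and 12 of 1520 on MCDD reached 1500 genes. By stain these were 25 and 6 of 760 wells under the cDC1/2 stain, and the same counts, 25 and 6, under the mDC stain, ND first. On single plates they were 8, 17, 13 and 12 wells on ND and 1, 5, 2 and 4 on MCDD, in the order cDC1/2 stain 1.1 and 1.2, then mDC stain 1.1 and 1.2. The diets did not overlap. The single richest well was on an ND plate under the mDC stain, with 2349 genes, but the maximum overlapped between diets, since MCDD plate 1.2 of the cDC1/2 stain reached 2145 and ND plate 1.1 of that stain 1797.

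**Figure D2:**
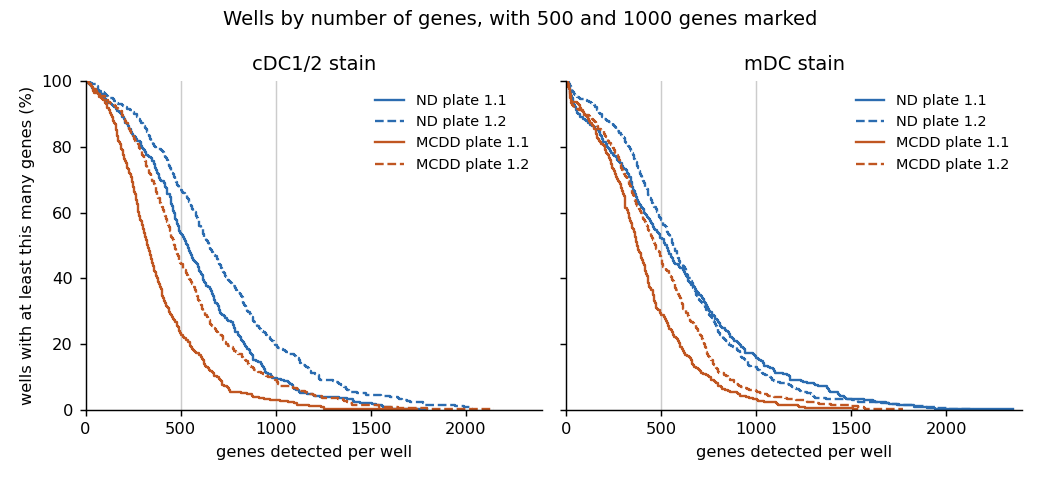
Share of the 380 wells of a plate (percent) that had at least the number of genes on the horizontal axis, for the cDC1/2 stain (left) and the mDC stain (right), with ND in blue, MCDD in orange and grey lines at 500 and 1000 genes. At 500 genes the ND curves lie between 52.1% and 66.8% and the MCDD curves between 23.4% and 46.6%, and at the low end the curves run together.

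The share of wells with at least 100 genes, by contrast, overlapped between diets. It was 95.0% and 96.3% on the ND plates and 94.2% and 95.5% on the MCDD plates of the cDC1/2 stain. The mDC plates had 88.4% and 94.5% on ND and 90.0% and 89.7% on MCDD. The difference was -1.18 ± 1.58 percentage points (SE, n = 4 plates each, exact permutation p = 0.611, adjusted p = 0.611), and it was 0.329 percentage points without ND plate 1.2 of the mDC stain and -0.855 without ND plate 1.2 of the cDC1/2 stain. On every plate at least 88.4% of wells passed this level.

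The number of genes detected depends on the total, so both were compared. The median total per well was 18235.5 and 37875 on the ND plates and 14688 and 24021.5 on the MCDD plates of the cDC1/2 stain. The mDC plates had median totals of 18297 and 14307.5 on ND and 12882.5 and 17312 on MCDD. The diets overlapped in both stains. The difference was -0.30 ± 0.35 on the log2 scale (SE, n = 4 plates each, exact permutation p = 0.389, adjusted p = 0.444), and it was -0.04 without ND plate 1.2 of the cDC1/2 stain. Without ND plate 1.1 of that stain it was -0.56. The difference in total was smaller than its error, and the part of depth in the lower number of genes cannot be read from it.

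Within a plate, genes and total were tightly linked. Across the 380 wells of a plate, the correlation of log2 genes with log2 total ranged from 0.94 to 0.98, and the slope of the straight line from 0.73 to 0.88. These are descriptions across wells of 1 plate, which share a library and of which both measures come from the same counts. The number of genes that a given total bought nevertheless differed between plates. The median number of genes per 1000 of total was 29.6 and 17.3 on ND and 22.4 and 19.6 on MCDD under the cDC1/2 stain. With the mDC stain it was 27.9 and 38.5 on ND and 29.0 and 26.6 on MCDD. The lowest value, 17.3, belonged to the plate with the highest total, and both extremes were ND plates.

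To compare wells of like total, the wells of all 8 plates were divided at the totals 9069.8, 14688.4, 22163 and 34007.6 into 5 bins of 608 wells each, and the median number of genes was taken per plate and bin. In the third bin, with totals from 14688.4 to 22163, the ND plates had 544 and 356 genes and the MCDD plates 391 and 390 under the cDC1/2 stain. In the mDC plates ND gave 518 and 685.5 genes and MCDD 501 and 485 in this bin. In the cDC1/2 stain 1 ND plate was above and the other below both MCDD plates, while in the mDC stain both ND plates were above, 1 of them narrowly. In the fifth bin, with totals above 34007.6, the cDC1/2 stain had 1089 and 881 genes on ND and 746 and 849 on MCDD. The mDC stain had 1151 and 1308 genes on ND and 1004 and 964 on MCDD in the fifth bin, so within each stain both ND plates were above both MCDD plates. The totals were not alike there. ND plate 1.2 of the cDC1/2 stain, at 881 genes, had a median total of 55882 in this bin. The MCDD plates of that stain had 39998 and 48888.5. In the fourth bin this ND plate, with 524 genes, was below both MCDD plates of its stain, with 534 and 540.

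From the first bin to the fifth, the log2 difference between MCDD and ND was -0.07 ± 0.45, -0.26 ± 0.15, -0.22 ± 0.18, -0.24 ± 0.17 and -0.31 ± 0.10 (SE, n = 4 plates each). The single bins were not tested. The mean over the 5 bins on the log2 scale, the number of genes at matched total, came to 506.5 and 328.5 genes on ND and 369.2 and 356.1 on MCDD under the cDC1/2 stain. Under the mDC stain it was 438.3 and 617.0 genes on ND and 451.6 and 410.5 on MCDD. The diets overlapped in both stains: the lowest plate of all was an ND plate, and so was the highest. The 2 ND plates of a stain lay farther apart than the 2 MCDD plates in both stains.

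The difference at matched total was -0.22 ± 0.20 on the log2 scale (SE, n = 4 plates each, exact permutation p = 0.444, adjusted p = 0.444). It is about the size of its SE, and smaller than the difference in the median with no matching. Single ND plates moved it most. It was -0.06 without ND plate 1.1 of the cDC1/2 stain, -0.38 without ND plate 1.2 of that stain, -0.34 without ND plate 1.1 of the mDC stain and -0.10 without ND plate 1.2 of the mDC stain. Among wells between the 25th and the 75th percentile of total it was -0.32, with an exact permutation p of 0.0556 (adjusted p = 0.0778). Other ways of matching gave smaller differences. It was -0.28 with 10 bins (exact permutation p = 0.278) and -0.26 from a straight line read at the pooled median total (exact permutation p = 0.111). With bins set within each stain it was -0.22, and as log2 genes minus log2 total -0.18. With the empty-well median subtracted it was -0.17 (exact permutation p = 0.444 for these last 3). The outer bins have no outer limit, so the totals of 2 plates within them can differ, and the median total of the fifth bin ran from 38676 to 55882. The middle 3 bins alone gave -0.24 (exact permutation p = 0.222).

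**Figure D3:**
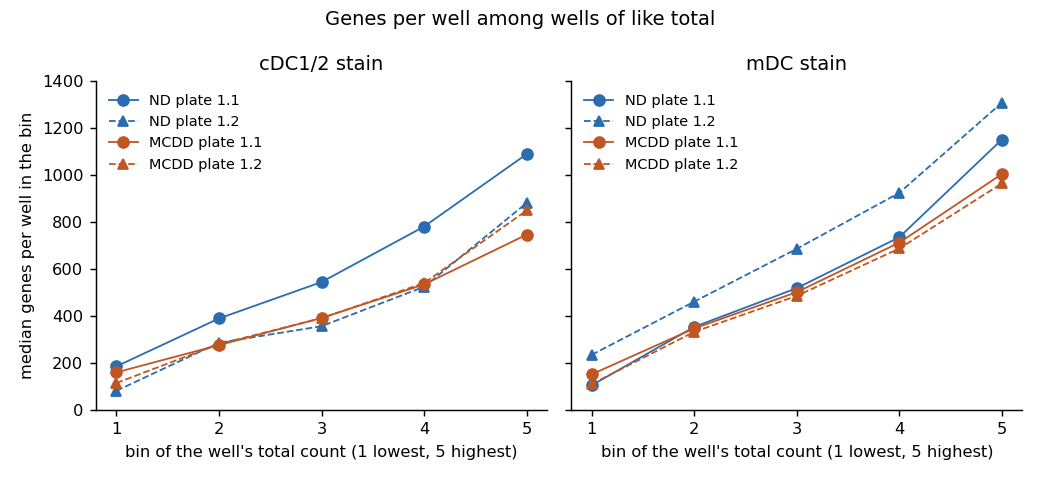
Median number of genes per well in 5 bins of the well's total count, from the lowest (1) to the highest (5), for each plate of the cDC1/2 stain (left) and the mDC stain (right), with ND in blue and MCDD in orange. In each stain 1 ND plate runs well above both MCDD plates, while the other ND plate lies close to them up to the fourth bin.

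Among the wells of the fifth bin, those with the highest totals, the share that reached 1000 genes was also lower on MCDD within each stain. Under the cDC1/2 stain it was 36 of 55 wells (65.5%) and 75 of 209 (35.9%) on ND and 11 of 51 (21.6%) and 35 of 112 (31.3%) on MCDD. Under the mDC stain it was 61 of 82 wells (74.4%) and 29 of 29 (100%) on ND and 12 of 23 (52.2%) and 22 of 47 (46.8%) on MCDD. The plate of the cDC1/2 stain with 209 wells in this bin is the one with the highest total. These shares were not tested, and over the 2 stains they overlapped between diets.

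The 2 stains gave differences of the same sign in every one of the 7 readouts. For the median number of genes the difference was -0.59 ± 0.29 under the cDC1/2 stain and -0.37 ± 0.17 under the mDC stain (SE, n = 2 plates each). For the 90th percentile it was -0.43 ± 0.29 and -0.49 ± 0.11, and at matched total -0.17 ± 0.31 and -0.27 ± 0.26, in the same order. The total gave -0.48 ± 0.64 under the cDC1/2 stain and -0.12 ± 0.28 under the mDC stain. The difference between the stains was tested by relabelling diet within each stain. For the median it was -0.22 ± 0.34 (SE), with an exact permutation p of 0.778, and the adjusted p was 0.944 for all 7 readouts. This test takes neither stain to have a diet effect, so an effect shared by both raises its p, which cannot fall below 0.0556. These p-values therefore cannot show that the stains are alike. With stain labels permuted within diet instead, the exact permutation p for the median was 0.5. With errors of 0.31 to 0.78 for these differences between stains, a difference as large as the diet effect itself was not detectable at this number of plates.

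**Figure D4:**
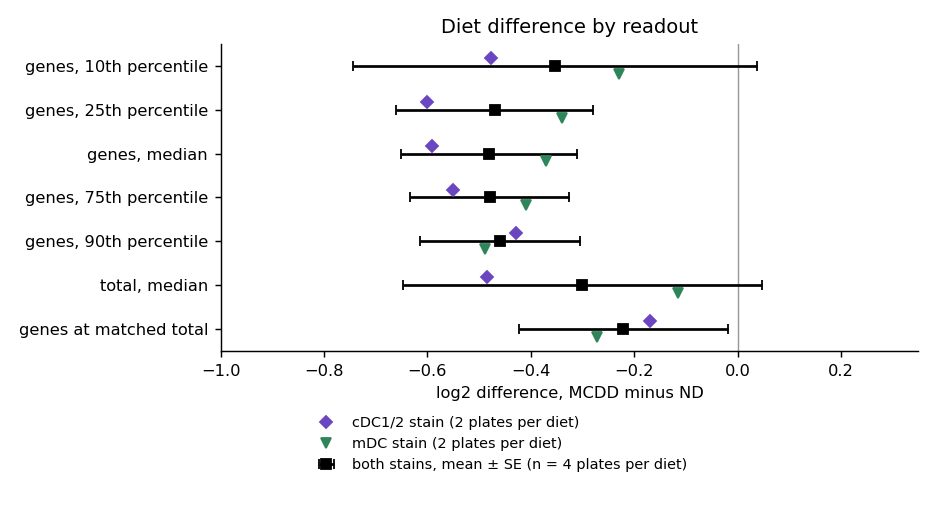
Log2 difference between MCDD and ND for the 7 readouts. Diamonds are the 4 plates of the cDC1/2 stain, triangles the 4 plates of the mDC stain, and squares the mean of the 2 stains with its SE (n = 4 plates per diet). The squares for the 25th to 90th percentile lie between -0.48 and -0.46 with bars clear of 0, while the bars for the 10th percentile and the total cross 0 and that for genes at matched total ends just below it.

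The diet difference was then set beside those of the other cDC sorts of the series that used the same gate and 2 weeks of diet. Liver cDC with no stain named, 4 plates in batch SB52, had plate medians of 362.5 to 384 genes on ND and 401.5 to 491.5 on MCDD (n = 2 plates each), a log2 difference of 0.25. The diet difference of the stained plates minus that of these plates was -0.73. The permutation test that relabels diet in both sets, and so takes neither set to have a diet effect, gave an exact p of 0.00926 and an adjusted p of 0.0278 over 3 sorts. The opposite sign in these plates was known when the comparison was chosen, so this p is not independent evidence. Leaving out 1 plate at a time moved the value between -0.88 and -0.59. The adjusted p was 0.0556 to 0.111 when the plate left out was an ND plate of either stain, MCDD plate 1.1 of the cDC1/2 stain, an ND plate with no stain named or MCDD plate 1 with no stain named, and it stayed at 0.0278 when it was 1 of the other 4. Without ND plate 1.2 of the cDC1/2 stain the value was -0.66 (exact permutation, adjusted p = 0.111). By the 90th percentile of genes the difference between the sorts was -0.41 (exact permutation, adjusted p = 0.0972), and at matched total it was -0.46 (exact permutation, adjusted p = 0.292). In these 2 readouts the plates with no stain named had diet differences of -0.05 and 0.20, and their diets overlapped in both. For matched total the bins were set anew on the totals of both sorts together, which put the stained plates at -0.25. Sort and sequencing batch cannot be told apart here. Lymph node cDC and blood cDC had diet differences of -0.10 and -0.09 in the median, and the stained plates differed from them by -0.38 and -0.39 (exact permutation, adjusted p = 0.25 for both). The lymph node value rests on 5 ND and 5 MCDD plates, since 1 MCDD plate of the 11 was in a batch with no ND plate. With that plate and no strata of batch the lymph node diet difference turned to 0.18, and the stained plates differed from it by -0.66 (exact permutation, adjusted p = 0.131). At matched total, with bins set anew on the totals of both sorts, the lymph node diet difference was 0.28 and that of the stained plates -0.21. The stained plates thus differed from lymph node cDC by -0.48 (exact permutation, adjusted p = 0.225). Blood cDC had a diet difference of 0.18 at the 90th percentile, from which the stained plates differed by -0.63 (exact permutation p = 0.0278, adjusted p = 0.0833). Genes were few in blood, with plate medians of 85 to 118 on ND and 86.5 to 102.5 on MCDD. The richest empty well of the stained plates had 52. At the 90th percentile the blood plates had 173.3 to 233.1 genes on ND and 213.3 to 241.4 on MCDD, so their values lie nearer the floor.

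Positions on the plate left a trace in the stained wells. Wells D9 and E10, mapped as holding 1 cell, had under 100 genes on all 8 plates, with 10 to 68 genes at D9 and 5 to 22 at E10. The empty well O2 had a total of 543 to 11935 with 4 to 24 genes, and its total was over 4 times that of any other empty well on 7 of the 8 plates, all but MCDD plate 1.1 of the mDC stain. Each position carried the same cell barcode on every plate, so position and barcode cannot be told apart. The barcodes of these wells, as deposited and written whole in capitals, are shown because D9 and E10 were low on all 8 plates and O2 stood out among the empty wells on 7.
D9: GACCTGT
E10: CGCAATC
O2: CGTACGT
Over the 28 pairs of plates, the correlation of the number of genes between wells of the same position had a median of 0.10 and ran from 0.00 to 0.29, over 380 wells a pair, as a description. The 73 cell wells on the rim of a plate had a median number of genes 0.92 to 1.32 times that of the inner wells. Since all 8 plates share 1 layout, each diet has the same positions. Without D9 and E10 the difference in the median was -0.48, and with each well centred on its position it was -0.47 (exact permutation p = 0.0556 for both).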

How the data were processed

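Per the labels' protocols, mRNA of single cells on capture plates was barcoded during cDNA synthesis, pooled and amplified by T7 transcription. The submitters' processing notes name bcl2fastq 2.15.0.4 and mm10. How reads were aligned, counted and filtered is not given in the sources used here. In the deposited table stand the authors' whole-number total count and number of genes detected for each well, not corrected for depth. No doublet caller was run. Values per gene were not analysed here, so the rules for naming genes and cell type markers named none.

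The plate was the replicate. For each plate, percentiles of genes over wells listed with 1 cell, the median total and shares past 100, 500 and 1000 genes were computed. The 95% Wilson intervals of these shares reach at most 5.00 percentage points to a side, averaged over both sides, and cover counting error only. Genes at matched total were computed as the mean over 5 bins of the median log2(genes + 1). Effects are the mean over both stains of the log2 difference MCDD minus ND, with the SE pooled within stain and diet. Diet labels were permuted within stain (two-sided, exact, 36 relabellings), and p-values were adjusted by Benjamini-Hochberg over 7 readouts or 3 shares. Alternatives were other bins, filters, scales, relabellings and each plate left out. The methods were run on simulated plates, which differed less from each other in genes at a given total than the real plates. That run therefore does not show how the matched readout behaves at the real spread. The members, readouts and lists were chosen with earlier results of these data known. The computations ran in Python 3.11.15 (scipy 1.17.1, pandas 2.3.3, numpy 2.4.6), and matplotlib 3.10.9 drew the plots.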

Additional observations from a re-analysis of the deposited data

Results flagged for a closer look

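The median total per well of ND plate 1.2 of the cDC1/2 stain was 37875, against 14307.5 to 18297 on the other 3 ND plates. The gap to its nearest neighbour was 0.831 of the range of the 4 plates, just above Dixon's 95% critical value. On the log2 scale it was 0.747, below that value. It was the 1 value past the limit in 20 tests, of 10 related readouts in each of 2 groups of 4 plates, and chance gives about 1 in 20.

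The diet difference in the median number of genes of the stained plates minus that of the liver cDC plates with no stain named was -0.73 on the log2 scale (exact permutation test, adjusted p = 0.0278 over 3 sorts). In the median the stained plates were lower on MCDD in 4 of 4 plates and the others were higher in 2 of 2. At the 90th percentile the others had a diet difference of -0.05 and at matched total 1 of 0.20, and their diets overlapped in both. The opposite sign in the median was known when the comparison was chosen, so its p is not independent evidence. The 2 sets were sequenced in batches SB121 and SB52, which cannot be told apart from the sort.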

How the results depend on the processing

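The 7 readouts and 3 shares kept their sign under every alternative run, except the share with at least 100 genes, which was 0.329 percentage points without ND plate 1.2 of the mDC stain (range -2.70 to 0.329 with 1 plate left out). With 1 plate left out the 10th percentile ranged from -0.70 to -0.01, the 25th from -0.61 to -0.33, the median from -0.61 to -0.35, the 75th from -0.59 to -0.36, the 90th from -0.58 to -0.34, the total from -0.56 to -0.04 and genes at matched total from -0.38 to -0.06. The shares with at least 500 and 1000 genes ranged from -27.0 to -16.3 and from -11.9 to -6.91 percentage points. With diet labels permuted over all 8 plates, where the smallest exact p is 0.0286, those shares, -21.6 and -9.41, had an adjusted p of 0.0429 and the median one of 0.0667. With the replicate block the median was again -0.48, with an exact p of 0.125, the smallest it can give, and no call changed. The labels do not say that the numbers 1.1 and 1.2 pair plates. Deviations of wells at the same position correlated at 0.08 (cDC1/2 stain) and 0.01 (mDC stain), but such wells hold unrelated cells, so this cannot show whether plates share an animal or a sort. Other ways of matching gave -0.32 to -0.17.

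The difference between the stains changed sign with single plates left out. It ranged from -0.94 to 0.45 for the 10th percentile, -0.54 to 0.0227 for the 25th, -0.48 to 0.0353 for the median, -0.37 to 0.0896 for the 75th, -0.18 to 0.30 for the 90th, -0.90 to 0.16 for the total and -0.21 to 0.41 at matched total. Against liver cDC with no stain named the difference ranged from -0.88 to -0.59 with 1 of 12 plates left out, and in 8 of these 12 runs it no longer passed (adjusted p of 0.0556 to 0.111). Nor did it pass by the 90th percentile (-0.41) or at matched total (-0.46). The middle bins, the low positions, the 90th percentile between sorts and leaving out plates in that comparison were chosen after seeing the data. The cause of these changes was not tested.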
